A study of Mus musculus with 9 samples.

Results

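Integrins are cell surface receptors built from 1 alpha and 1 beta subunit, and they anchor cells to matrix proteins or to receptors on other cells. The subunits described here are the 10 genes Itgam, Itgal, Itgax, Itgb2, Itga4 and Itgb7, which are best known from leukocytes, and Itgb1, Itga6, Itgb4 and Itgav, which are found on glia, vessels and other cells that sit on matrix. They were chosen by gene symbol and are measured by 16 of the 12488 probe sets on the array, 9 for the leukocyte subunits and 7 for the glial and matrix subunits. All 16 passed the filter on dim signal.

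RNA from the spinal cords of mice of the B10.PL strain was measured on single-colour oligonucleotide arrays, 1 for each of 9 samples. There were 3 samples with experimental autoimmune encephalomyelitis (EAE, a mouse model of multiple sclerosis) given 200 ng of calcitriol (1,25(OH)2D3, the hormone form of vitamin D; replicates 6, 7 and 8), 3 with EAE given placebo (replicates 1, 5 and 10), and 3 naive controls (replicates 2, 3 and 4). EAE cords were taken 6 h after treatment, and no placebo is named for the naive mice. The labels give neither age nor sex, nor whether replicates are separate animals, so p-values measure the spread between these samples, which may be technical. One title, that of replicate 6 in the calcitriol group, has D2 where the others have D3.

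In inflamed nervous tissue the beta 2 integrins, in which Itgb2 pairs with Itgal (as LFA-1), Itgam (as Mac-1, the complement receptor CR3) or Itgax (as CR4), hold leukocytes to endothelium and let phagocytes bind opsonised targets. Itga4 pairs with Itgb1 to bind Vcam1 on inflamed vessels, the step that the multiple sclerosis antibody natalizumab blocks, and with Itgb7 to bind Madcam1 in the gut. Itga6 with Itgb1 or Itgb4 binds laminins of basement membranes, and Itgav with several beta subunits binds fibronectin, vitronectin and latent TGF-beta.

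Signals below are scaled array signals with a floor of 19.3, and differences are on the log2 scale from limma. Array medians as deposited were 122 to 135.8 on calcitriol, 127.15 to 133.9 on placebo and 110.9 to 121.95 on naive arrays. Before scaling, every naive median was therefore below every EAE median, the closest being 121.95 and 122. Naive arrays resembled each other less (r = 0.765 to 0.878 across probe sets) than calcitriol (0.899 to 0.938) or placebo arrays (0.921 to 0.936). Naive replicate 2 was in the lowest pair, and Mbp, Gfap and Nefl, defining genes of myelin, astrocytes and neurons that were bright on every other array, are listed at 0 on it. The 5′ minus 3′ difference of the beta-actin control, a sign of how complete the labelled RNA was, ran from -0.84 to -0.52 log2 on calcitriol and from -1.11 to -0.42 on placebo arrays, against -0.25 to 0.12 on naive arrays. It moves with every comparison with naive cord below, and its part in them was not tested.

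Of the 10 subunits, Itgam and Itgb2, the chains of Mac-1, were higher and Itgb4 was lower in calcitriol-treated EAE than in naive cord. Itgam rose 5.99-fold and Itgb2 2.78-fold, while Itgb4 fell by 1.57 on the log2 scale. In placebo-treated EAE the same 3 genes lay on the same sides of naive cord without passing the test. The remaining 7 subunits passed in no comparison, and none of the 10 passed in calcitriol minus placebo.

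These calls can be read against the whole array. In calcitriol minus naive, 3 of 16 member probe sets passed, where 2.00% of all 12177 tested did; 2 were higher (1.68% of all) and 1 was lower (0.320% of all). In placebo minus naive, 0 of 16 passed in limma, where 0.936% of all did (0.887% higher and 0.0493% lower), and 5 had an unadjusted p under 0.05 (9.33% of all). Groups had no overlap for 7 of 16 in calcitriol minus naive (16.1% of all) and for 6 of 16 in placebo minus naive (14.5% of all). An unadjusted p under 0.05 was found for 3 of 16 in calcitriol minus naive, the 3 that passed (11.9% of all).

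Itgam encodes the alpha M chain (CD11b), carried by monocytes, macrophages, microglia and neutrophils. Its signal was 229.3, 128.9 and 280.3 on calcitriol arrays (replicates 6, 7 and 8), 128.6, 249.9 and 111.1 on placebo arrays (replicates 1, 5 and 10) and 33.6, 59.4 and below 0 on naive arrays (replicates 2, 3 and 4). Every EAE array was above every naive array, and the calcitriol and placebo arrays overlapped. The difference was 2.58 ± 0.47 log2 (SE, n = 3 per group) for calcitriol minus naive (limma, Benjamini-Hochberg adjusted p = 0.0254). For placebo minus naive it was 2.18 ± 0.47 log2 (SE), which missed the threshold of 0.05 (limma adjusted p = 0.0849), and it passed when exact zeros were treated as missing (adjusted p = 0.0341, in a range of 0.0341 to 0.341 over 20 alternatives). Itgam itself had 0 exact zeros and its difference stayed at 2.18 log2 under that setting, so its p moved only through other probe sets. The size depends on the dim naive signal: naive replicate 4 stood at the floor, and calcitriol minus naive was 2.18 log2 without that array (adjusted p = 0.0589) and 1.84 log2 with array weights. The call was also lost without calcitriol replicate 6 (adjusted p = 0.101), calcitriol replicate 8 (0.139) or placebo replicate 1 (0.0508, through the shared estimate of the spread), with a lower floor (0.0579), with a pseudocount in place of the floor (0.0538) and when only the groups compared were fitted (0.075), in a range of 0.0080 to 0.139.

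Itgb2 encodes the beta 2 chain (CD18), which all beta 2 integrins share. Its signal was 443.5, 309.7 and 618.4 on calcitriol arrays (replicates 6, 7 and 8), 296.9, 434.4 and 282.1 on placebo arrays (replicates 1, 5 and 10) and 154.4, 183.8 and 139.2 on naive arrays (replicates 2, 3 and 4). As for Itgam, all 6 EAE arrays were above all 3 naive arrays. The difference was 1.48 ± 0.26 log2 (SE, n = 3 per group) for calcitriol minus naive (limma adjusted p = 0.0218) and 1.07 ± 0.26 log2 (SE) for placebo minus naive (limma adjusted p = 0.139). The calcitriol call was lost without calcitriol replicate 6 (adjusted p = 0.0839), calcitriol replicate 8 (0.0897), naive replicate 3 (0.054) or naive replicate 4 (0.0653) and when only the groups compared were fitted (0.0657), in a range of 0.0068 to 0.0897 over 20 alternatives. Its size held between 1.23 and 1.73 log2.

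The signals of Itgam and Itgb2 ordered the arrays alike within each group. Calcitriol replicate 8 was highest and replicate 7 lowest for both genes, placebo replicate 5 was highest and replicate 10 lowest, and naive replicate 3 was highest and replicate 4 lowest. Among 7649 other genes above the floor on at least 7 arrays, those whose log2 signal was most like Itgam over the 9 arrays were Psme1 (Pearson r = 0.987), Ostc (0.976) and Crip1 (0.974). For Itgb2 they were H2-D1 (0.985), Psme1 (0.985) and Crip1 (0.982). Psme1 is an interferon-inducible activator subunit of the proteasome, H2-D1 an MHC class I heavy chain whose close relatives may share its probes, Crip1 a small LIM domain protein, and Ostc a subunit of the oligosaccharyltransferase complex. These coefficients describe arrays that fall into naive and EAE sets and share their scaling, so no p is given.

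**Figure D1:**
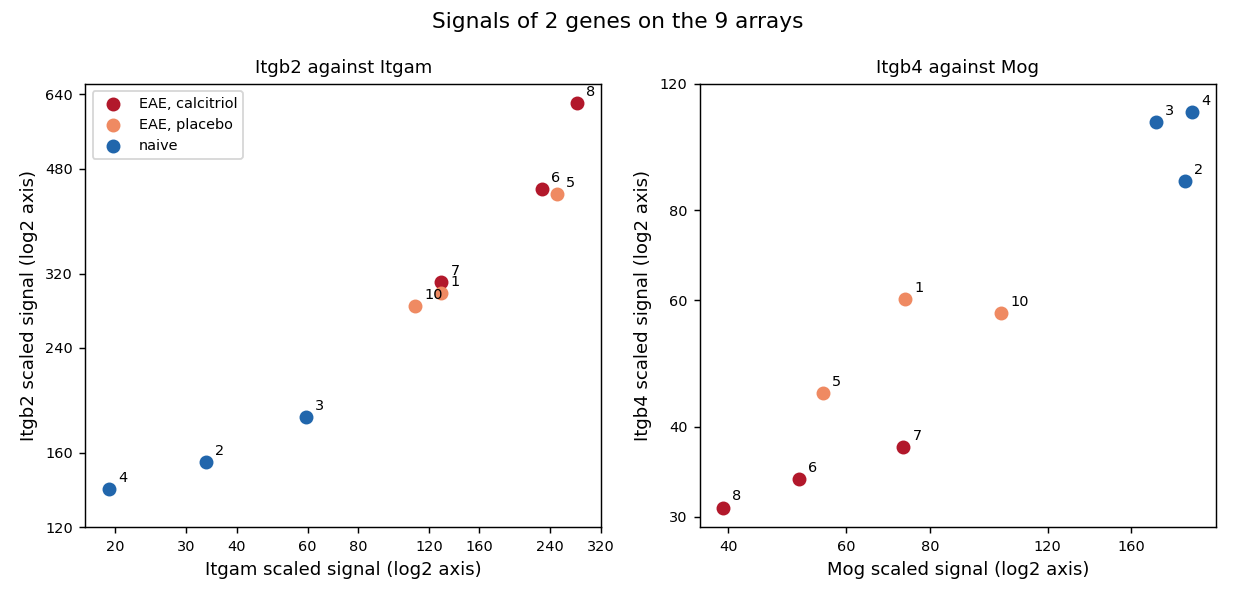
Scaled signal of Itgb2 against Itgam (left) and of Itgb4 against Mog (right), 1 point per array on log2 axes, numbered by replicate and coloured by group, with values under the floor drawn at 19.3. On the left the 6 EAE arrays lie above the 3 naive arrays in both genes, with calcitriol replicate 8 highest and naive replicate 4 lowest; on the right the naive arrays are highest in both.

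Summed markers of phagocytes were, like Itgam and Itgb2, higher on EAE than on naive arrays. The summed signal of 15 measured of 19 listed myeloid cell markers was 4393 to 5397 on calcitriol, 3790 to 4421 on placebo and 2677 to 2922 on naive arrays, without overlap between EAE and naive. Within groups, this sum ordered the calcitriol arrays as both genes did. On the other arrays it was highest on placebo replicate 10 and naive replicate 4, where both genes were lowest. Lyz2, the myeloid lysozyme, did not exceed the floor on any naive array. It rose at least 22.6-fold in calcitriol-treated EAE (limma adjusted p = 0.00198) and at least 9.69-fold in placebo-treated EAE (limma adjusted p = 0.0138). Of these markers 4 rose, none fell and 11 did not pass in calcitriol minus naive, with a median of 0.77 log2, and 2 rose in placebo minus naive, with a median of 0.52 log2. The 12 neutrophil markers, all measured, summed to 4560 to 5653 on calcitriol, 4555 to 5547 on placebo and 3061 to 3334 on naive arrays, with 3 of them higher in each comparison with naive cord and S100a9 not above the floor on any naive array. In whole cord, more cells of a type and more RNA per cell cannot be told apart, and the part of either marker list in the integrin values was not tested.

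Itgal and Itgax, the other alpha chains that pair with Itgb2, did not pass the test and had narrow intervals. Itgal, the alpha chain of LFA-1 on lymphocytes and most other leukocytes, ranged from 287.4 to 338 on calcitriol, 268.7 to 330.8 on placebo and 221 to 325.5 on naive arrays. Its difference was 0.14 log2 (95% interval -0.26 to 0.53) for calcitriol minus naive and 0.07 log2 (-0.32 to 0.47) for placebo minus naive. Itgax, the CD11c chain of dendritic cells and some macrophages, ranged from 416 to 470.4, 408.2 to 416.1 and 390.4 to 411.9 on calcitriol, placebo and naive arrays. All calcitriol arrays lay above all naive arrays, but by 0.13 log2 (95% interval -0.12 to 0.39), and placebo minus naive was 0.04 log2 (-0.21 to 0.30). Both upper bounds are below the lower bounds of Itgam in the same comparisons, 1.52 and 1.11 log2, and the difference between genes was not tested. On naive arrays both genes read above Itgb2 (139.2 to 183.8), the chain they pair with. How far these probe sets track the RNA of Itgal and Itgax was not tested, so a narrow interval need not mean unchanged RNA.

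No marker of T, B or dendritic cells passed, whereas 4 myeloid and 3 neutrophil markers did in calcitriol minus naive (above), whose cells can carry Itgal and, for some macrophages, Itgax too. Of 12 measured T cell markers 0 passed in limma in any comparison, and their summed signal was 2532 to 2731 on calcitriol, 2346 to 2432 on placebo and 2601 to 2906 on naive arrays. Of 6 dendritic cell markers 0 passed, with sums of 2718 to 3161, 2966 to 3223 and 3201 to 3782 on calcitriol, placebo and naive arrays. The 6 measured B cell markers likewise had 0 past the test, with sums of 1328 to 1633, 1195 to 1429 and 1336 to 1474. For T cells, all placebo sums lay below all naive sums, and 2 of the 12 markers were above 0 in placebo minus naive. Cd4 read 878.7 to 973.9 on naive arrays. Whether the probe sets of these 3 lists track such cells in whole cord was not tested, so their values do not show that the cells were absent in EAE.

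Itgam and Itgax are neighbouring genes on mouse chromosome 7, with no other protein-coding gene between them in GRCm38.p6, whereas 35 lie between Itgal and Itgam. The 250 bases before the start of each are shown because these neighbours pair with the same beta chain and had different values here. Both are from RefSeq (GRCm38.p6, plus strand, 5′ to 3′), Itgam at chr7:128062390-128062639 and Itgax at chr7:128129300-128129549. Capitals mark GAGGAA on either strand (GAGGAA or TTCCTC, which do not overlap here), a purine-rich core of sites bound by the myeloid factor PU.1.
Itgam: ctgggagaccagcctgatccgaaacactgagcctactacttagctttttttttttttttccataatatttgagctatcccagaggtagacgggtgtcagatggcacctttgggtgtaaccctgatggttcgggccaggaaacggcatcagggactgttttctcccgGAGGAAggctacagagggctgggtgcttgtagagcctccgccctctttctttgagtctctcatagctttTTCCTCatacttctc
Itgax: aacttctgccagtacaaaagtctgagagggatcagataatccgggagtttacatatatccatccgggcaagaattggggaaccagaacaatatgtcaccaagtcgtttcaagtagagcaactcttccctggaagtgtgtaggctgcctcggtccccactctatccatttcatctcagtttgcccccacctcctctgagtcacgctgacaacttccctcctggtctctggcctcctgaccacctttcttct
The Itgam window held the letters 2 times, starting 84 and 15 bases before the gene's start, and the Itgax window 0 times. Of 32851 promoter windows of this length in the table, 23.2% held them. Windows were found for 6 of the 10 subunits, and 3 of them (Itgam, Itgb1 and Itgav) held the letters. Itgav held them 2 times, as Itgam did, and Itgb1 1 time. Any part of these letters in the signals was not tested.

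Itga4 and Itgb7, the leukocyte subunits that meet vascular and gut addressins, did not pass in any comparison. Itga4 had 3 probe sets that disagreed in sign. The brightest (102656_at) gave -0.57 log2 (95% interval -1.25 to 0.11) in calcitriol minus naive and -0.35 log2 (-1.03 to 0.33) in placebo minus naive, from signals of 54.2 to 65.3 on calcitriol, 58.5 to 98.9 on placebo and 73.2 to 123.6 on naive arrays. The dimmest (102655_at) gave 0.72 log2 (-0.24 to 1.68) and 0.73 log2 (-0.23 to 1.69), with 2 naive arrays and placebo replicate 5 at the floor. The other (95292_at) gave 0.21 log2 (-0.90 to 1.33) and -0.09 log2 (-1.21 to 1.02). No direction can therefore be given for Itga4. Itgb7 also had opposite signs, at -0.20 log2 (-0.56 to 0.16) in calcitriol minus naive with 100906_at and 0.32 log2 (-0.23 to 0.88) with 162193_f_at. In placebo minus naive they gave -0.07 and 0.48 log2. The probe set 162193_f_at carries a letter suffix, a limit given for Itgb1 below.

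**Figure D2:**
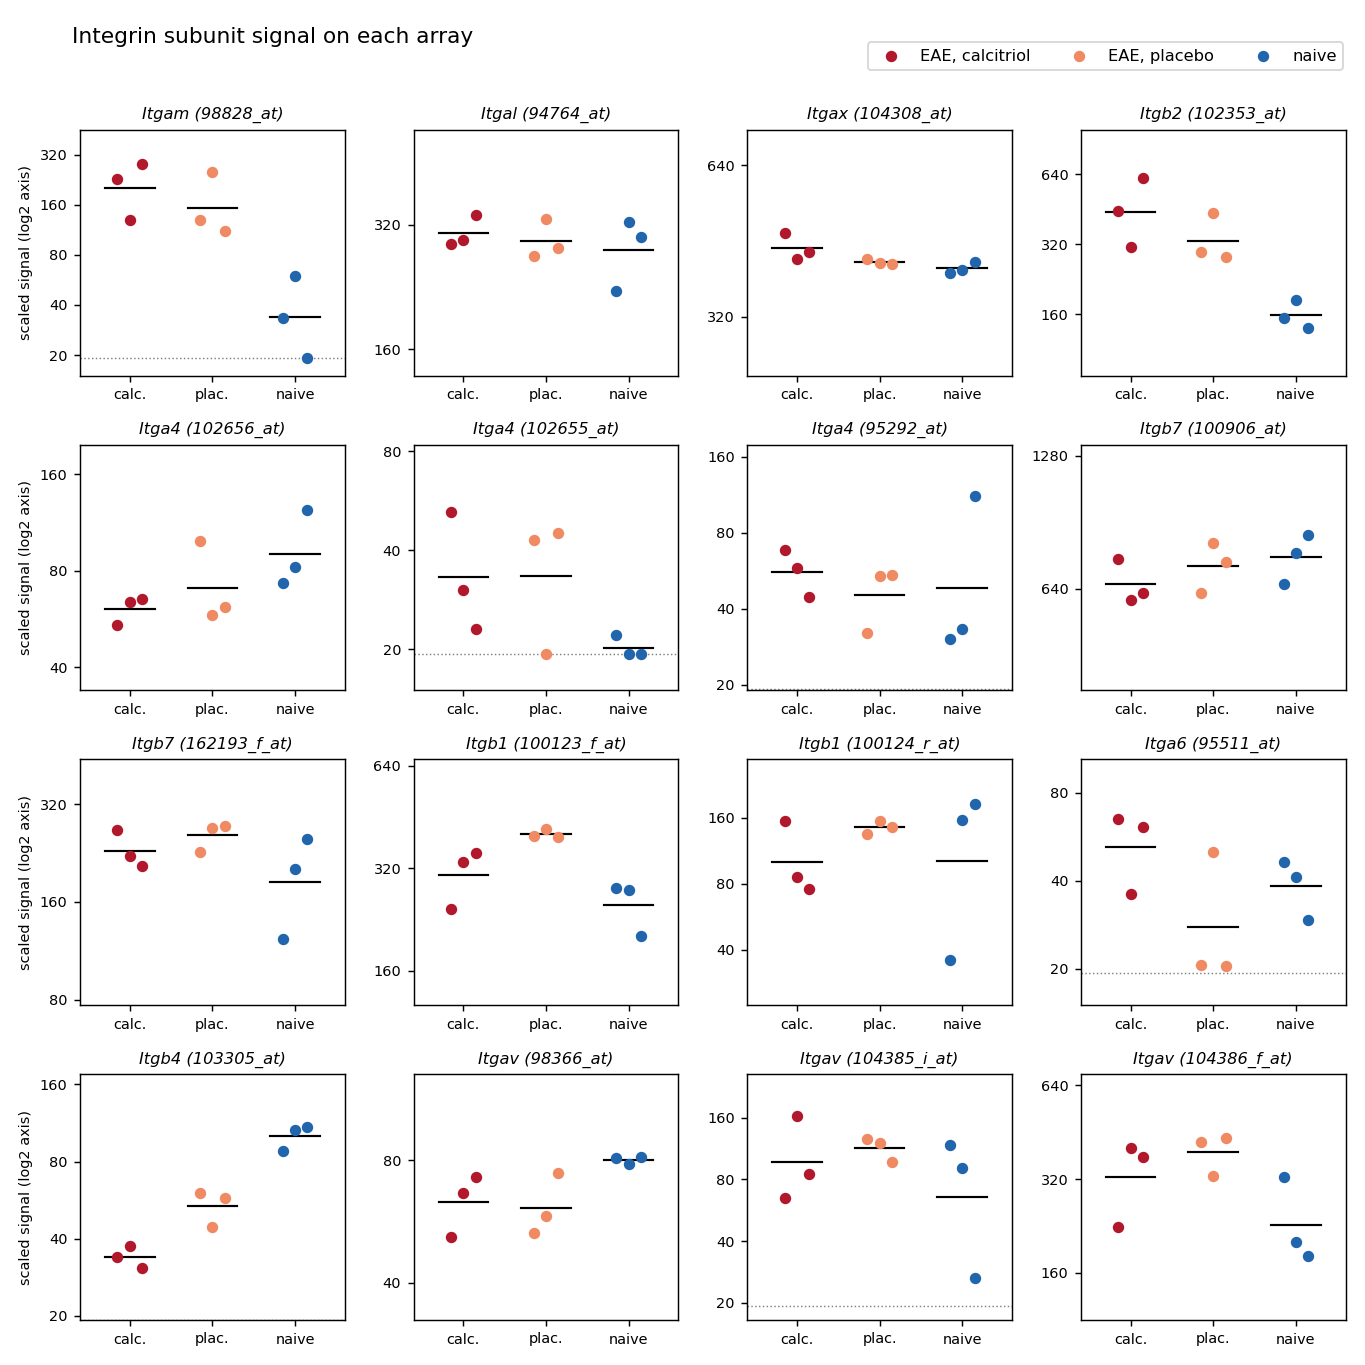
Scaled signal of the 16 integrin subunit probe sets, 1 panel each, with 1 point per array (log2 axis, whose range differs between panels), a black line at the mean of the log2 values of each group and a dotted line at the floor of 19.3. EAE and naive arrays separate for Itgam, Itgb2 and Itgb4, and probe sets of Itga4, Itgb7 and Itgav disagree.

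Itgb4 encodes the beta 4 chain, which pairs only with Itga6 and is known from epithelia, Schwann cells and endothelium. Its signal was 33.9, 37.5 and 30.9 on calcitriol arrays (replicates 6, 7 and 8), 60.2, 44.5 and 57.5 on placebo arrays (replicates 1, 5 and 10) and 87.9, 106.1 and 109.6 on naive arrays (replicates 2, 3 and 4). None of the 3 groups overlapped another, with calcitriol lowest and naive highest. It was 2.96-fold lower in calcitriol-treated EAE than in naive cord (-1.57 ± 0.26 log2, SE, n = 3 per group, limma adjusted p = 0.0145). In placebo-treated EAE it stood at -0.91 ± 0.26 log2 (SE) against naive (limma adjusted p = 0.212), and it passed with array weights (-0.99 log2, adjusted p = 0.0255, in a range of 0.0255 to 0.553). Those weights were 4.38 for naive replicate 3 against 0.259 and 0.414 for naive replicates 2 and 4. The weighted naive mean therefore rests mostly on naive replicate 3. The calcitriol call was lost without calcitriol replicate 8 (adjusted p = 0.0819) or naive replicate 3 (0.0668) and when only the groups compared were fitted (0.06), in a range of 0.0018 to 0.0819 over 20 alternatives.

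The genes whose signal was most like that of Itgb4 over the 9 arrays were Mog, a myelin surface protein of oligodendrocytes (r = 0.951), Nit2, a metabolic amidase (0.951), and Agt, the angiotensinogen of astrocytes (0.951). Mog had 39.3 to 73.1 on calcitriol, 55.5 to 102.3 on placebo and 174.3 to 197.3 on naive arrays. It fell in calcitriol minus naive (-1.83 ± 0.30 log2, SE, limma adjusted p = 0.0158) and stood at -1.33 ± 0.30 log2 (SE) in placebo minus naive (limma adjusted p = 0.106). Nit2 and Agt stood at -0.86 and -0.69 log2 in calcitriol minus naive without passing (limma adjusted p = 0.129 and 0.0789). These 3 genes were picked for likeness over the same arrays, so sharing the direction of Itgb4 is not separate evidence. Marker lists of cells around Itgb4 were set beside it. The summed signal of 4 measured of 8 listed Schwann cell markers was 1214 to 1334 on calcitriol, 1376 to 1494 on placebo and 1424 to 1714 on naive arrays, with 0 past the limma test. The 8 measured of 10 listed oligodendrocyte markers summed to 4431 to 7114, 6207 to 6755 and 6265 to 8759 on calcitriol, placebo and naive arrays, and Mog was the 1 that passed. The 8 measured of 10 listed endothelial markers summed to 1103 to 1242, 1119 to 1356 and 959.7 to 1217, with 0 past the test. The 9 measured of 11 listed neuron markers summed to 5222 to 5699 on calcitriol, 5487 to 7545 on placebo and 7891 to 14720 on naive arrays, so all EAE arrays were below all naive arrays. None of them passed in limma, and their median difference was -0.85 log2 in calcitriol minus naive and -0.56 log2 in placebo minus naive, against -0.54 and -0.40 log2 for the oligodendrocyte markers. The 7 measured of 8 listed astrocyte markers summed to 5514 to 8458, 7975 to 9085 and 6232 to 11310 on calcitriol, placebo and naive arrays, with 0 past the test. The neuron and astrocyte lists each hold 2 genes listed at 0 on naive replicate 2, and the oligodendrocyte list holds 1. That array nevertheless gave the highest naive sum of each of these 3 lists. The neuron sums were 8537 and 7891 on naive replicates 3 and 4. The part of any of these lists in the Itgb4 value was not tested.

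Itga6, the alpha chain that pairs with Itgb4, did not pass in any comparison. Its signal was 64.9, 35.9 and 61 on calcitriol arrays, 20.6, 50.3 and 20.4 on placebo arrays and 46.4, 41.0 and 29.3 on naive arrays. Placebo replicates 1 and 10 lay just above the floor, and the groups overlapped. The difference was 0.45 log2 (95% interval -0.52 to 1.42) for calcitriol minus naive and -0.47 log2 (-1.43 to 0.50) for placebo minus naive. The second interval holds the Itgb4 difference of the same comparison (-0.91 log2). The first does not hold that of Itgb4 in calcitriol minus naive (-1.57 log2). The difference between the 2 genes was not tested.

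Itgb1, the beta 1 chain shared by most matrix receptors, was measured by 2 probe sets whose letter suffix marks designs that did not meet every rule. How far they track the RNA of Itgb1 alone was not tested. The brighter (100123_f_at) had 242.4, 334.1 and 353.9 on calcitriol arrays, 397.4, 418 and 394.7 on placebo arrays and 279.6, 276.2 and 202.7 on naive arrays. Placebo arrays were above all others, and calcitriol arrays overlapped with naive arrays. Placebo minus naive was 0.69 ± 0.19 log2 (SE, limma adjusted p = 0.189), which passed with array weights (0.58 log2, adjusted p = 0.0325, in a range of 0.0325 to 0.492), and calcitriol minus naive was 0.29 ± 0.19 log2 (SE, limma adjusted p = 0.6). The array weights leaned on naive replicate 3, as given for Itgb4. The dimmer (100124_r_at) gave 0.51 log2 (95% interval -0.73 to 1.76) and -0.02 log2 (-1.26 to 1.23), with naive replicate 2 far below the other naive arrays, at 35.9 against 156.5 and 183.7.

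Itgav, the alpha V chain of vitronectin and fibronectin receptors, had 3 probe sets that disagreed. The plain probe set (98366_at) had 51.9 to 72.8 on calcitriol, 52.9 to 74.2 on placebo and 78.2 to 81.4 on naive arrays, so all EAE arrays were below all naive arrays. The differences were -0.35 ± 0.25 log2 (SE) for calcitriol and -0.39 ± 0.25 log2 (SE) for placebo (limma adjusted p = 0.654 and 0.716). The brightest (104386_f_at) ran the other way, with 224.8 to 402.7, 326.7 to 434.6 and 180.5 to 325 on calcitriol, placebo and naive arrays and differences from naive of 0.51 ± 0.28 and 0.78 ± 0.28 log2 (SE; limma adjusted p = 0.531 and 0.374). With array weights, which leaned on naive replicate 3, it passed in both comparisons (0.80 and 0.93 log2, adjusted p = 0.0313 and 0.0209, in ranges of 0.0313 to 0.802 and 0.0209 to 0.69). The third (104385_i_at) gave 0.56 and 0.80 log2 with intervals that held 0. Like those of Itgb1, 104386_f_at and 104385_i_at carry a letter suffix, and how far they track Itgav RNA alone was not tested. No direction can be given for Itgav.

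With 1 probe set per gene, 2 of 6 leukocyte subunits rose and 4 did not pass in calcitriol minus naive, and 1 of 4 glial and matrix subunits fell and 3 did not pass. Of all 12177 tested probe sets, 1.68% were called higher and 0.320% lower in calcitriol minus naive. The share with 1 probe set per gene was not computed, and the classes were not tested against each other. The median difference was 0.14 log2 for the leukocyte subunits and -0.03 log2 for the glial and matrix subunits in that comparison, and 0.06 and -0.43 log2 in placebo minus naive, where the median of all tested probe sets was -0.02 log2 in both. These medians depend on which probe set stands for Itga4, Itgb7, Itgb1 and Itgav, so they were computed for all 6 choices within each class, an alternative chosen after seeing the data. Over these choices the leukocyte median ran from 0.14 to 0.52 log2 in calcitriol minus naive and from 0.06 to 0.61 log2 in placebo minus naive. The glial and matrix median ran from -0.18 to 0.37 log2 and from -0.43 to 0.11 log2 in the same comparisons, so it has no settled sign. The 2 comparisons with naive cord share the naive arrays, so they are not independent.

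**Figure D3:**
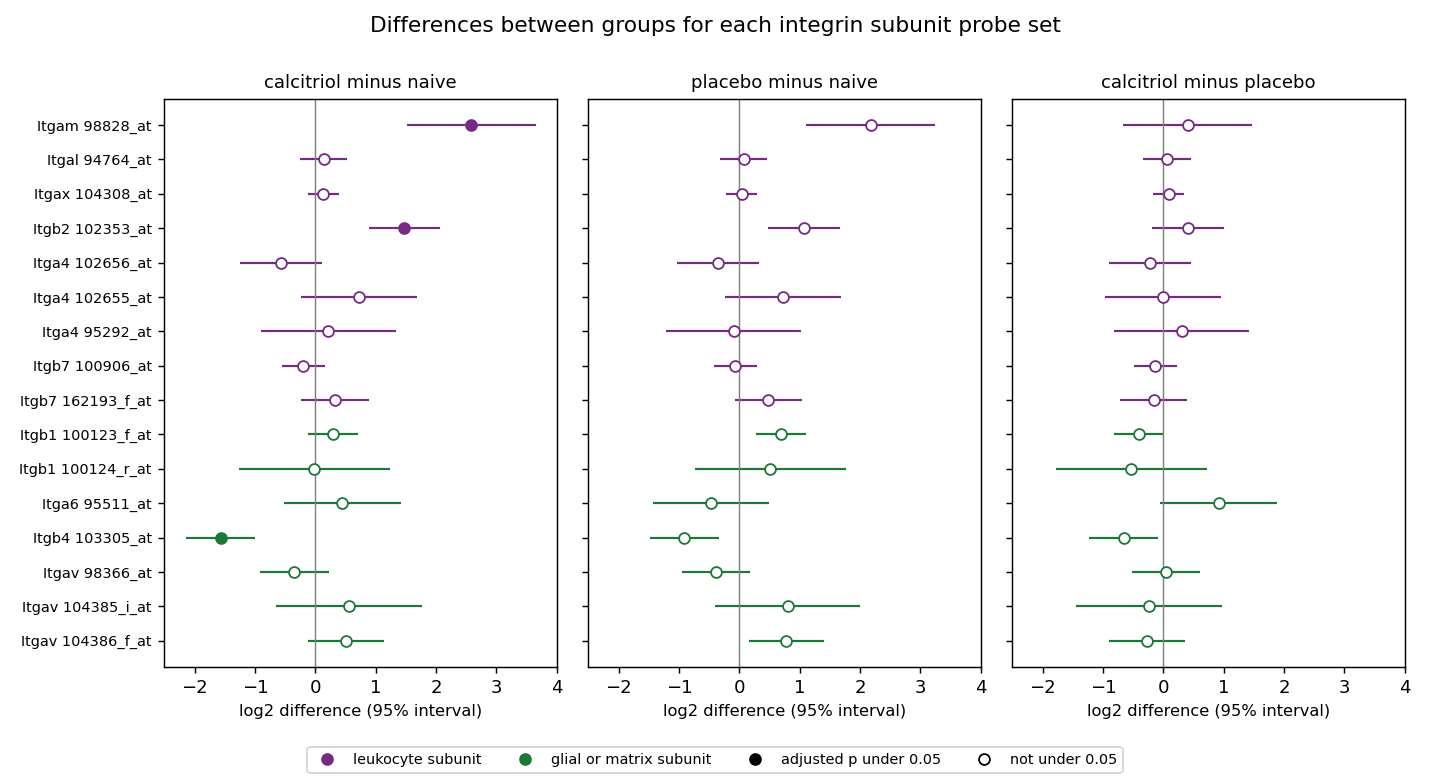
Log2 difference and its 95% interval for each of the 16 probe sets in the 3 comparisons, with leukocyte subunits in purple and glial and matrix subunits in green; filled points passed a limma adjusted p of 0.05. Filled points are Itgam and Itgb2 above 0 and Itgb4 below 0 in calcitriol minus naive, and none in the other comparisons.

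Calcitriol was compared with placebo to find what the hormone changed in EAE within 6 h. None of the 16 probe sets passed in limma (0 of all 12177 did), and 1 had an unadjusted p under 0.05, where 2.58% of all did. That 1 was Itgb4, at -0.66 ± 0.26 log2 (SE, 95% interval -1.23 to -0.09, limma adjusted p = 1 after rounding), with all 3 calcitriol arrays below all 3 placebo arrays. The Itgb4 difference ran from -0.79 to -0.45 log2 over the alternatives. Groups without overlap were seen for 2 of 16 probe sets, where 9.99% of all had them, the other being Itgb1 (100123_f_at), at -0.40 log2 (-0.82 to 0.02). Itgam and Itgb2 were each at 0.41 log2 in this comparison, with intervals of -0.66 to 1.47 and -0.18 to 1.00, which hold 0 and reach a log2 difference of 1 or more. Itgal (-0.33 to 0.46 log2) and Itgax (-0.16 to 0.35 log2) had narrower intervals. Itga6 had the highest difference, 0.92 log2 (-0.05 to 1.88).

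Of the other integrin subunits, 9 of 18 listed were measured, and 0 passed in any comparison in limma. Itga5, the fibronectin receptor alpha chain, had 128.1 to 174.4 on calcitriol, 134.9 to 144.3 on placebo and 52.6 to 97.7 on naive arrays, with all EAE arrays above all naive arrays. Its differences were 1.01 log2 for calcitriol (limma adjusted p = 0.099) and 0.90 log2 for placebo (limma adjusted p = 0.215). Itga3, Itga2 and Itga8, alpha chains of laminin, collagen and matrix receptors, stood at -0.40, -0.36 and 0.00 log2 in calcitriol minus naive and -0.31, -0.37 and -0.35 log2 in placebo minus naive.

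Ligands were listed as those of leukocyte integrins, mostly cell surface and plasma proteins, and as matrix proteins, some of which leukocyte integrins also bind; the lists were not tested against each other. Of 12 measured genes of the first list, 0 passed in any comparison, with medians of -0.03 log2 in calcitriol minus naive and -0.04 log2 in placebo minus naive. Icam1, a ligand of LFA-1 and Mac-1, had 27.9, 51.5 and 82.1 on the calcitriol arrays in rising order, 20.1, 59.4 and 119.4 on the placebo arrays and 10.7, 15.9 and 27.6 on the naive arrays. Its differences from naive were 1.17 log2 for calcitriol (limma adjusted p = 0.52) and 1.26 log2 for placebo (limma adjusted p = 0.601). Of the 3 naive values, 2 lay under the floor. Of 21 measured matrix ligands, 3 rose and 18 did not pass in calcitriol minus naive (median 0.16 log2), and 2 rose in placebo minus naive (median 0.16 log2). Fn1, the fibronectin bound by Itga4, Itga5 and Itgav receptors, had 1092 to 1917 on calcitriol, 774.4 to 1249 on placebo and 82.6 to 115.3 on naive arrays, and rose 14.2-fold with calcitriol and 9.93-fold with placebo (limma adjusted p = 0.000175 and 0.000498). Col4a1, a basement membrane collagen, rose by 1.57 log2 and 1.42 log2 (limma adjusted p = 0.00312 and 0.00883). Ccn2, a matricellular protein that binds Itgav receptors, did not exceed the floor in naive cord. It rose at least 5.59-fold with calcitriol (limma adjusted p = 0.0433), and was at least 3.54-fold higher with placebo without passing (limma adjusted p = 0.215).

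Partners of integrins in the membrane included 3 genes that rose in both comparisons with naive cord. They were the tetraspanins Cd9, Cd53 and Cd63, which organise integrins and other receptors in the membrane, among 15 measured partners with a median of 0.27 log2 in each comparison. Cd53, a leukocyte tetraspanin, did not exceed the floor in naive cord. It rose at least 14.3-fold with calcitriol (limma adjusted p = 0.00348) and at least 7.66-fold with placebo (limma adjusted p = 0.0214), and its calcitriol and placebo arrays had the same order as those of Itgam and Itgb2. Lyz2 shared the calcitriol order only, with placebo replicates 5, 10 and 1 from high to low. Cd9 rose by 2.26 and 2.10 log2 (limma adjusted p = 0.00312 and 0.00828) and Cd63 by 1.92 and 1.70 log2 (limma adjusted p = 0.013 and 0.0376). Of 28 measured cytoplasmic partners, which link integrin tails to actin and kinases, 0 passed in any comparison, with medians of 0.11 and 0.22 log2. Pxn, the focal adhesion adaptor paxillin, had the smallest p of these in placebo minus naive and stood at 0.72 and 0.64 log2 (limma adjusted p = 0.147 and 0.295). Of 7 measured genes of the TGF-beta system that Itgav receptors activate, 0 passed, and Tgfb1 stood at 0.50 and 0.27 log2 (limma adjusted p = 0.353 and 0.756).

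**Figure D4:**
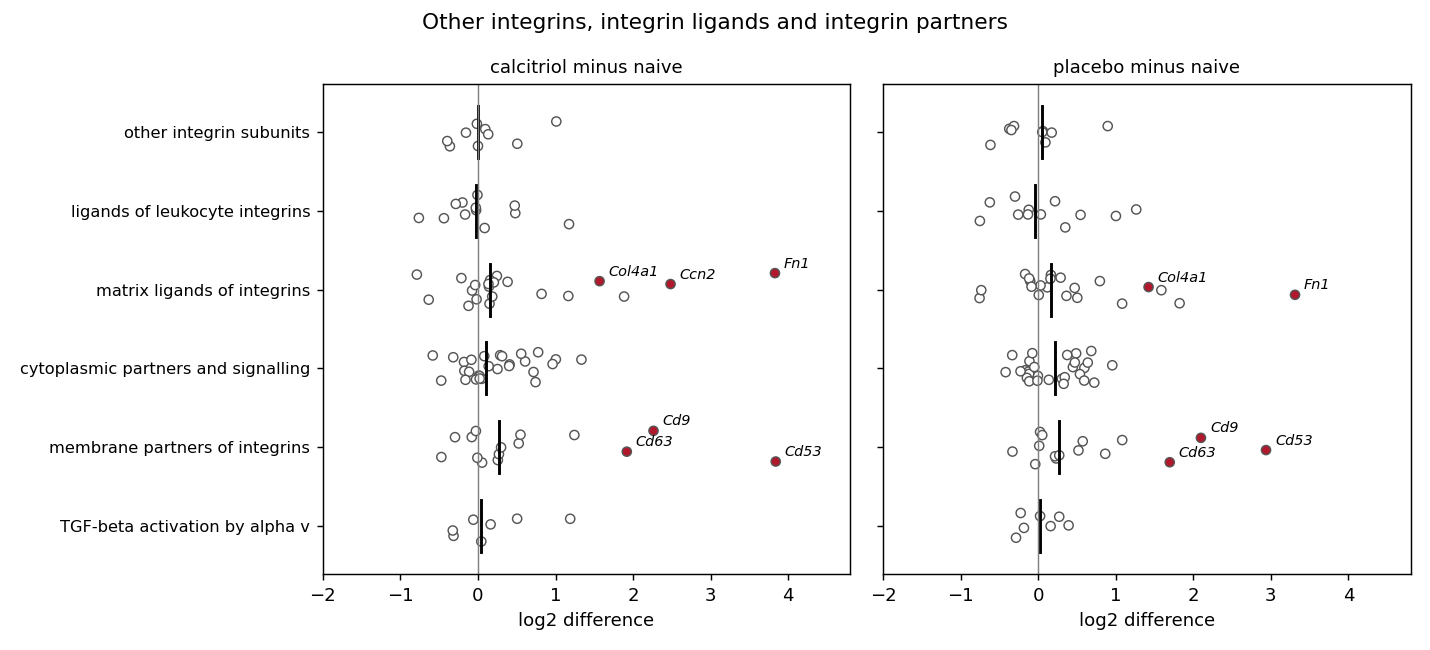
Log2 differences of the measured genes of 6 lists of other integrins, ligands and partners in calcitriol minus naive (left) and placebo minus naive (right), with 1 point per gene, a black bar at each list's median and filled points past a limma adjusted p of 0.05. Filled points are Fn1, Col4a1, Cd9, Cd53 and Cd63 in both panels and Ccn2 in the left panel.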

How the data were processed

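The deposited values are linear signal intensity values per probe set. The sources used here do not give the authors' scaling or summary. Of the deposited intensity values, 1.27% to 3.53% per array were below 0 and 765 in all were exactly 0. Each array was scaled to a common mean of 192.8 (trimming 2% at each end, controls left out), with lower values set to 10% of that mean, 19.3 (the floor), before log2. After removal of 66 control probe sets, 12177 exceeded the floor on 3 or more arrays and were tested. One limma fit (3.58.1, R 4.3.3) over all arrays, with an intensity trend and 6 residual degrees of freedom, gave the comparisons. P-values were adjusted by Benjamini-Hochberg within each comparison over all tested probe sets, with a threshold of 0.05. The fit was tested on simulated data. Python 3.11.15 drew the plots. The number of arrays, 3 per group, limits precision (median SE 0.29 log2).

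Probe sets were named from the platform annotation, without updating symbols. Where a gene had several probe sets, those without a letter suffix were preferred, and of these the brightest stood for the gene. All member probe sets are given. From each other list, genes with the smallest p in placebo minus naive and those past the threshold were named, not all of them in the text. Lists came from general knowledge, and members and lists were chosen with earlier results of these data known. Promoters are RefSeq's.

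Alternatives were values as deposited, quantile normalization, other floors, a pseudocount, other filters, exact zeros as missing, array weights, fits of the groups compared, no trend and leaving out each array.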

Additional observations from a re-analysis of the deposited data

How the results depend on the processing

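No paired analysis was possible because no replicate number is shared between groups. For the 16 member probe sets, 902 of 957 alternative values kept their direction and their side of the threshold, 15 lost a call and 5 gained one. The lost calls were those of Itgam, Itgb2 and Itgb4 in calcitriol minus naive, and no called value changed sign. The causes were not tested, and genes of the other lists were not recomputed under the alternatives.

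Over all probe sets, the 114 calls of placebo minus naive became 639 with array weights, 61 with only the groups compared and 20 to 176 without single arrays. The 244 of calcitriol minus naive became 1014, 118 and 75 to 392. The 0 of calcitriol minus placebo became 0 to 1 without single arrays.

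Signs turned in 35 values (log2), none past the threshold. In placebo minus naive, array weights gave -0.025 for Itgb1 100124_r_at, -0.11 for Itgal and 0.31 for Itga4 95292_at, unscaled values gave 0.065 for Itgb7 100906_at and 0.040 for Itga4 95292_at, and the floor at 20% gave 0.0088 for Itga6. Without single arrays the ranges were -0.23 to 0.95 for Itgb1 100124_r_at, -0.17 to 0.035 for Itgb7 100906_at, -0.091 to 0.19 for Itgal and -0.42 to 0.51 for Itga4 95292_at. In calcitriol minus placebo, Itga4 102655_at was 0.32 with the floor at 5%, 0.018 at 20% and 0.15 with a pseudocount. Without single arrays the ranges were -0.41 to 0.25 for Itga4 102655_at, -0.36 to 0.022 for Itga4 102656_at, -0.61 to 0.049 for Itgav 104385_i_at, -0.011 to 0.15 for Itgal and -0.061 to 0.18 for Itgav 98366_at. In calcitriol minus naive, Itgb1 100124_r_at was 0.10 unscaled and Itgal was -0.044 with array weights. Without single arrays the ranges were -0.76 to 0.42 for Itgb1 100124_r_at, -0.091 to 0.98 for Itgav 104385_i_at, -0.028 to 0.25 for Itgal and -0.12 to 0.82 for Itga4 95292_at.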
